A study of Homo sapiens with 3 samples.

Results

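Motile cilium axoneme genes were followed in 3 RNA-seq libraries of teratoma. The set was taken by gene symbol alone: dynein chains of the axoneme (DNAH, DNAI and DNAL genes), dynein arm assembly factors, radial spoke genes (RSPH), central pair genes (SPAG6, SPAG16, SPAG17 and HYDIN), tektins (TEKT), genes named cilia and flagella associated protein (CFAP), and SPAG1, ZMYND10, PIFO and TPPP3. It held 69 of the 27307 genes in the tables, on 121 transcript entries, and 37 of the 69 had more than 1 entry. For each gene the entry with the highest mean RPKM was kept. RPKM is reads per kilobase of transcript per 1000000 reads, so levels of short and long genes can be compared.

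H1, an established human embryonic stem cell line kept in E8 medium on Matrigel, was the source of every tumour: 1000000 cells were placed under the skin of immunodeficient SCID-beige mice, and growth was stopped at 3 to 4 weeks. Teratomas 1, 2 and 3 (numbered as in the labels) form a single group, so no untreated, genetic or stem cell group stands beside them. All derive from 1 cell line and grew in a mouse host, whose own cells can enter a tumour. Nothing in the labels states that each library is a tumour of its own. Differences between libraries therefore measure only the spread between these samples, which may be technical. Unless values are given per library, levels are mean ± SD over the 3 libraries (n = 3).

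A motile cilium beats because dynein motors, set in outer and inner arms along its microtubule doublets, slide neighbouring doublets against each other. Radial spokes and a central pair of microtubules regulate the motors, tektins and other inner proteins stiffen the doublets, and cytoplasmic assembly factors fold the dyneins before they enter the cilium. Such cilia occur on airway, oviduct and ependymal cells, on the choroid plexus and embryonic node, and, as the flagellum, on sperm. The transcription factors FOXJ1 and RFX switch on their genes, and RFX factors bind a motif called the X-box.

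Library totals were 46243199, 45815401 and 43605458 reads. At a length of 2500 bases, 3 reads corresponded to 0.0259, 0.0262 and 0.0275 RPKM. Members had a median of 162, 156 and 147 reads, and 41 of the 69 had at least 100 reads in each library. Listed markers of neurons (14 of 14, led by TUBB3, STMN2 and INA), mesenchyme (11 of 11, led by COL1A1, COL3A1 and COL1A2) and endoderm epithelium (11 of 11, led by AFP, APOA1 and EPCAM) were at 1 RPKM or more in all 3 libraries. These are derivatives of the germ layers that define a teratoma. Teratoma 3 stood apart in all 3 lists. Summed over the neuron list it held 3060 RPKM against 904 and 1151 in teratomas 1 and 2. Over the mesenchyme list it held 476 against 2023 and 1639, and over the endoderm list 357 against 1133 and 3406. The part of this difference in the member values was not tested.

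The promoters of the members are shown first because the choice of symbols used no sequence, and the X-box letters were more frequent in them than in the whole promoter table. The RefSeq promoter table (GRCh38.p14, 250 bases before to 50 after the start) held 57 of the 69 genes. Letters were searched on both strands. The X-box pair, GTTNCCNNGGNAAC, was found in 3 of the 57 (5.26%) and in 172 of all 35116 promoters (0.49%). One arm of it, GTTGCCA, was found in 17 of 57 (29.8%) against 4.08% of all promoters, and a pair match can include an arm match. A forkhead core, TGTTTAC, was found in 4 of 57 (7.02%) against 3.42%. The forkhead core did not overlap the X-box letters. A match is a description of letters, not a binding site.

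The 3 promoters with a pair match, and 2 others that held both an X-box arm and a forkhead core, are given from 5′ to 3′ in the direction of the gene, with matched letters in capitals.
DNAH1 (chr3:52316069-52316368, plus strand): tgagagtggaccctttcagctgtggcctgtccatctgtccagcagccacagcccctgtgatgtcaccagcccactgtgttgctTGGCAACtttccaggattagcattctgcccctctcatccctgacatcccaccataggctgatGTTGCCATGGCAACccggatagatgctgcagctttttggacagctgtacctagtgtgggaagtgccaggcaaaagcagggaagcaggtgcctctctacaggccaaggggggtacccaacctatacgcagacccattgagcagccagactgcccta
CFAP45 (chr1:159900116-159900415, minus strand): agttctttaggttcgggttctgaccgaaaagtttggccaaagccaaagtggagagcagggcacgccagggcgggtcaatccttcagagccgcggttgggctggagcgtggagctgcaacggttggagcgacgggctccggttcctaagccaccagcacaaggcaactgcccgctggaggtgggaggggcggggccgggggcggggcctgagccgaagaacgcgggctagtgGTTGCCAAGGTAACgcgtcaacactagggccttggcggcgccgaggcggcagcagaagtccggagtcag
SPAG16 (chr2:213284214-213284513, plus strand): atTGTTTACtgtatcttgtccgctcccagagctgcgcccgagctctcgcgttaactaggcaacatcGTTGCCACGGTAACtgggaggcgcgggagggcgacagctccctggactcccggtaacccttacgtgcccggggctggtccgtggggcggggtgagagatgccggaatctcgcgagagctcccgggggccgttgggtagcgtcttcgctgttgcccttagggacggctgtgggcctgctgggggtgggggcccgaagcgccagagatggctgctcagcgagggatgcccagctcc
TEKT1 (chr17:6831680-6831979, minus strand): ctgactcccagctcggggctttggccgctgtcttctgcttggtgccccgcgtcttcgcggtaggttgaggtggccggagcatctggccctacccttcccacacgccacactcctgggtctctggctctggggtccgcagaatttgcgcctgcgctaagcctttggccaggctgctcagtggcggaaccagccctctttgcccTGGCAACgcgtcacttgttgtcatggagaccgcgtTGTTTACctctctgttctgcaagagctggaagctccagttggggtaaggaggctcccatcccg
CFAP126 (chr1:161367827-161368126, minus strand): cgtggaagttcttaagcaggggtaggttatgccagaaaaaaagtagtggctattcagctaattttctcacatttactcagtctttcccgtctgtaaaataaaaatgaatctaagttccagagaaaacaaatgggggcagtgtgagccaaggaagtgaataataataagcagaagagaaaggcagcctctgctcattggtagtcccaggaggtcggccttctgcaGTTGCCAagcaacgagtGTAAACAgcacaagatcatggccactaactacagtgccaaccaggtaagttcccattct
The pair began at position -105 from the annotated start in DNAH1, at -19 in CFAP45 and at -184 in SPAG16. DNAH1 also had an arm at -167. The arm lay at -48 in TEKT1 and -26 in CFAP126, each upstream of the forkhead core, which began at -13 and -9. Members with an X-box arm were at 1 RPKM or more in all libraries in 10 of 17 cases, with a median of 1.34 RPKM. The 40 without one were so in 15 cases, with a median of 0.749 RPKM.

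**Figure D1:**
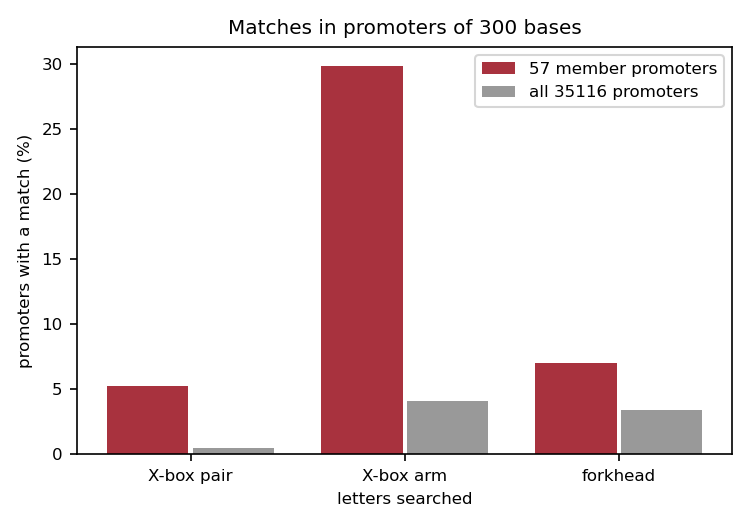
Share of promoters of 300 bases that hold the X-box pair, an X-box arm or a forkhead core on either strand (y axis, percent), in 57 member promoters (red) and all 35116 promoters of the table (grey). The X-box arm was in 29.8% of member promoters and 4.08% of all promoters.

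Axoneme genes were transcribed in every library, at low levels. Of the 69, 32 reached 1 RPKM in all 3 libraries, against a background of 52.7% of all genes, and 29 stayed under 1 RPKM in all 3, against 39.5%. The other 8 reached it in 1 or 2 libraries. The median member stood at 0.926 RPKM and the median gene at 2.05. Summed over the members, levels were 257, 238 and 212 RPKM in teratomas 1, 2 and 3 (236 ± 22.7), and the 5 highest members made up 40.1% of the mean sum. DNAH1 (1.1 RPKM) was the lowest member with a mean above 1 RPKM and HYDIN (0.926) the highest below it.

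**Figure D2:**
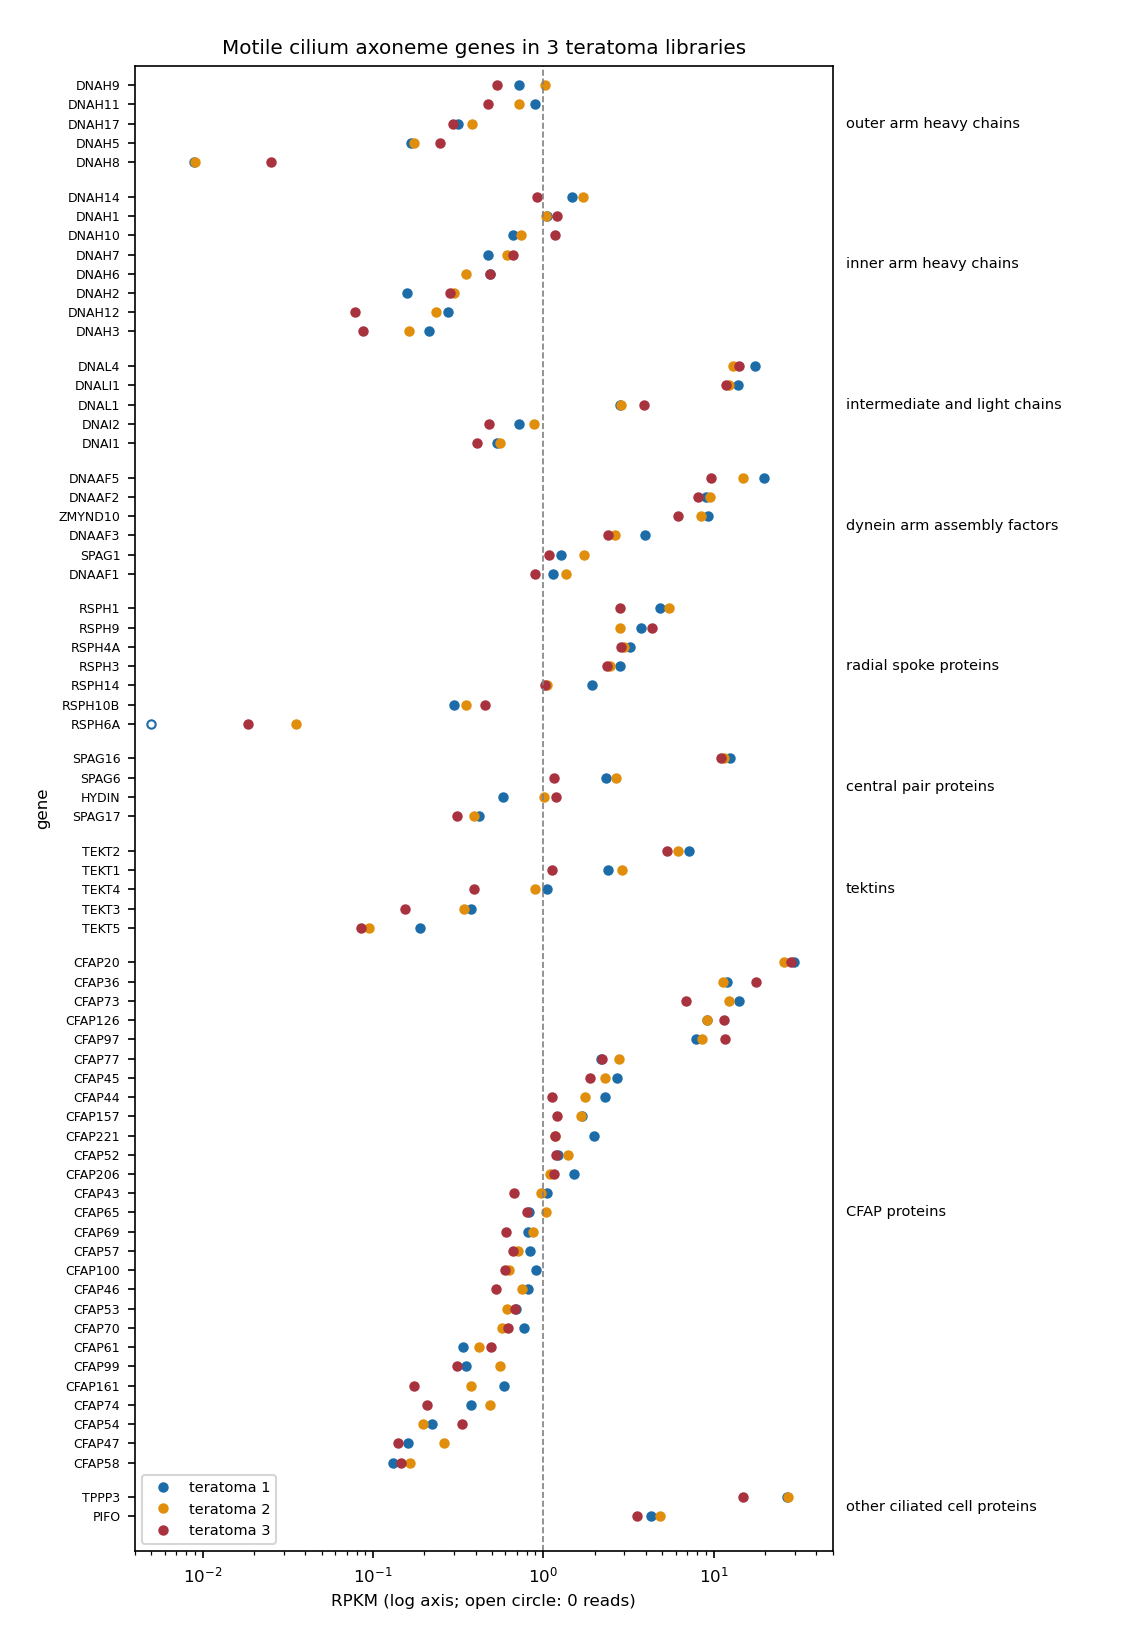
RPKM of each of the 69 members (rows, grouped by role) in teratoma 1 (blue), teratoma 2 (orange) and teratoma 3 (red) on a log axis, with a dashed line at 1 RPKM and an open circle, placed at the left edge, for 0 reads. Light chains and assembly factors lie mostly right of the line, and all 5 outer arm heavy chains have means left of it.

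The dynein heavy chains, the motors themselves, were the lowest of the larger groups. Of 13, only DNAH1 reached 1 RPKM in all libraries, at 1.05, 1.04 and 1.21 RPKM, and its spread was small. Among the 5 outer arm chains the highest was DNAH9, at 0.722, 1.03 and 0.532 RPKM, followed by DNAH11 at 0.89, 0.719 and 0.475. Teratoma 3 was lowest for both. DNAH5, the outer arm chain most often mutated in primary ciliary dyskinesia, a disorder of immotile cilia, stood at 0.167, 0.175 and 0.249 RPKM on 120, 125 and 169 reads. It was thus highest in teratoma 3, the opposite of DNAH9 and DNAH11. DNAH17, an outer arm chain of the sperm tail, stood at 0.33 ± 0.046, and DNAH8, another chain of sperm, at 0.0143 ± 0.00933 RPKM on 6, 6 and 16 reads.

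The 8 inner arm chains ranged in mean from 0.155 to 1.37 RPKM. DNAH10 stood at 0.665, 0.74 and 1.17 RPKM and was highest in teratoma 3, with a counting interval above those of both other libraries. DNAH7 (0.475, 0.611 and 0.666) and DNAH6 (0.488, 0.35 and 0.489) showed smaller differences. DNAH3, at 0.214, 0.164 and 0.0879 RPKM, and DNAH12, at 0.274, 0.234 and 0.0783, were lowest in teratoma 3, DNAH12 there on 7 reads. DNAH2 stood at 0.159, 0.301 and 0.282 RPKM and was lowest in teratoma 1. The inner arm chains thus had no shared order of libraries. DNAH14, the highest of them at 1.37 ± 0.412 RPKM, owed its value to a short entry described below.

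Light and intermediate chains of the same motors spread over a wider range. DNAL4, a light chain, stood at 17.5, 13 and 14 RPKM. DNALI1, a light chain of the inner arms, stood at 13.9, 12.3 and 11.8, and DNAL1, a light chain of the outer arms, at 2.82, 2.88 and 3.88. These 3 were at 1 RPKM or more throughout, with DNAL1 highest and DNALI1 lowest in teratoma 3. The intermediate chains that anchor the outer arm were far lower, DNAI1 at 0.533, 0.554 and 0.406 RPKM and DNAI2 at 0.724, 0.887 and 0.481. DNAI2 (mean 0.697 RPKM) stood at the level of DNAH11 (0.695), and DNAI1 (0.498) stood below it.

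Assembly factors stood above the motors they prepare. DNAAF5 was at 19.7, 14.8 and 9.71 RPKM, with a ratio of teratoma 1 to teratoma 3 of 2.03 (95% counting interval 1.91 to 2.16). DNAAF2 was at 9.01, 9.52 and 8.14, and ZMYND10 at 9.29, 8.49 and 6.2. DNAAF3 stood at 3.95, 2.63 and 2.41 RPKM. Of the 6 factors, 5 reached 1 RPKM in all libraries, and DNAAF1 (1.13, 1.36 and 0.898) and SPAG1 (1.27, 1.74 and 1.08) lay near that level. Each of the 6 was lowest in teratoma 3, as were 37.7% of all genes. That total includes 4022 genes without a read, which were not counted as lowest there. Of genes whose mean reached 1 RPKM, 48.1% were lowest in teratoma 3. For DNAAF5 and ZMYND10 the counting interval in teratoma 3 lay below those of both other libraries.

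Radial spoke genes divided into 5 at 1 RPKM or more and 2 far below. RSPH1, a spoke head protein, stood at 4.85, 5.49 and 2.81 RPKM, a ratio of 1.96 (1.62 to 2.38) between teratomas 2 and 3. RSPH9, another head protein, stood at 3.78, 2.84 and 4.36 and was highest in teratoma 3, but its counting intervals in teratomas 1 and 3 overlapped. RSPH4A, the third head protein, hardly varied at 3.25, 2.97 and 2.87 RPKM. The head proteins sit in 1 complex. Between teratomas 2 and 3, transcripts of RSPH1 and RSPH9 differed in opposite directions with intervals apart, and RSPH4A was not separated. Exons of RSPH9 overlap those of another gene, described below, so its order of libraries may not be its own. RSPH3, of the spoke stalk, stood at 2.55 ± 0.241 RPKM, and RSPH14 at 1.93, 1.05 and 1.03. RSPH6A, a testis paralogue of RSPH4A, was at 0, 0.0351 and 0.0185 RPKM on 0, 4 and 2 reads, and 3 reads would give it 0.0261 RPKM in teratoma 1. RSPH10B stood at 0.37 ± 0.0807 and has a near-identical copy, RSPH10B2, which lists the same reads at both of its 2 placements, so the copies could not be told apart.

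Of the central pair genes, SPAG16 was highest at 12.5, 11.6 and 11 RPKM, with counting intervals that overlapped. SPAG6 stood at 2.33, 2.68 and 1.15 RPKM, a ratio of 2.33 (1.89 to 2.9) between teratomas 2 and 3. HYDIN went the other way, at 0.582, 1.01 and 1.18, a ratio of 2.03 (1.55 to 2.68) between teratomas 3 and 1. SPAG17 stayed at 0.421, 0.392 and 0.31 RPKM. Transcripts of these 4 genes of 1 structure therefore differed in level. Their highest library differed too, but for SPAG16 the difference was small, with a ratio of 1.14 (1.02 to 1.27) between teratomas 1 and 3. On its longest entry HYDIN varied less, at 0.672, 0.733 and 0.803 RPKM.

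All 5 tektins, filament proteins inside the doublet microtubules, were lowest in teratoma 3. The background was 37.7% of all genes, those without a read included, and 48.1% of genes whose mean reached 1 RPKM. TEKT2 stood at 7.18, 6.18 and 5.3 RPKM and TEKT1 at 2.4, 2.89 and 1.12. TEKT4, which is known from sperm and from airway cilia, stood at 1.06, 0.893 and 0.394. The highest to lowest ratio was 2.58 (1.95 to 3.45) for TEKT1 and 2.68 (1.7 to 4.37) for TEKT4, and smaller for TEKT2 (1.35). TEKT3 (0.291 ± 0.119) and TEKT5 (0.123 ± 0.0567 RPKM, on 14, 7 and 6 reads) were low, with counting intervals of the libraries that overlapped. The ratio for TEKT3 was 2.44 (1.22 to 5.21).

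The 27 CFAP genes ranged from 0.147 to 28.1 RPKM in mean, and 12 reached 1 RPKM in all libraries. CFAP20, a doublet protein that many non-ciliated cells also make, was the highest of all members at 29.5, 26 and 28.6 RPKM. CFAP36 (12, 11.3 and 17.7) and CFAP97 (7.89, 8.57 and 11.6) were highest in teratoma 3, with counting intervals above both other libraries. CFAP73 stood at 14.1, 12.3 and 6.92 RPKM, a ratio of 2.04 (1.83 to 2.29), with teratoma 3 lowest. CFAP126 was at 9.17, 9.17 and 11.5. Among these high CFAP genes only CFAP73 was lowest in teratoma 3. Exons of CFAP73 and CFAP126 overlap those of other genes, described below, so their order of libraries may not be their own.

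The middle of the CFAP range held genes of the doublet lumen and of the central pair. CFAP45 (2.71, 2.31 and 1.88 RPKM) and CFAP52 (1.22, 1.39 and 1.19) encode proteins inside the doublets, and CFAP77 stood at 2.19, 2.77 and 2.21. CFAP44, which tethers an inner arm dynein, stood at 2.31, 1.77 and 1.12, and its partner CFAP43 at 1.05, 0.966 and 0.669. Both partners were lowest in teratoma 3. CFAP221, of the central pair, was at 1.98, 1.18 and 1.18 RPKM, CFAP157 at 1.52 ± 0.281 and CFAP206 at 1.25 ± 0.228. The 15 CFAP genes with means under 1 RPKM ran from CFAP58 (0.147) to CFAP43 (0.896), and among them CFAP161 (0.59, 0.374 and 0.175) and CFAP74 (0.376, 0.484 and 0.208) were at least 2-fold lower in teratoma 3 than in the highest library.

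TPPP3, a tubulin-binding protein of ciliated and other cells, was the second highest member at 26.9, 27.6 and 15 RPKM. PIFO, active during cilium assembly and disassembly, stood at 4.32, 4.86 and 3.58. Teratoma 3 was lowest for both, and the ratio for TPPP3 was 1.84 (1.68 to 2.02).

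Levels of some members rest on 1 of several transcript entries, which share exons and therefore reads. The highest and lowest entry differed at least 2-fold in mean RPKM for 4 members. SPAG16 had a 1270-base entry at 11.7 ± 0.758 RPKM and 3 longer entries at 3.97 to 4.44, and the order was the same in each library. DNAH14 stood at 1.37 ± 0.412 RPKM on a 1104-base entry, 0.834 ± 0.288 on 1997 bases and 0.288 ± 0.057 on the entry of 13788 bases, so the entry that spans a whole heavy chain lay at the level of DNAH17. CFAP44 had the reverse order, 1.73 ± 0.597 on 10259 bases and 0.616 ± 0.131 on 3281. In CFAP65 the entry of 3270 bases (0.891 ± 0.13) stood above those of 5981 (0.45 ± 0.0999) and 2287 bases (0.374 ± 0.0221). HYDIN, whose mean differed less between entries, had a 2-fold range between libraries on its 3122-base entry but 0.672, 0.733 and 0.803 RPKM on the entry of 21046 bases. DNAH9 was alike on both, at 0.76 ± 0.249 on 3147 bases and 0.721 ± 0.132 on 13750.

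**Figure D3:**
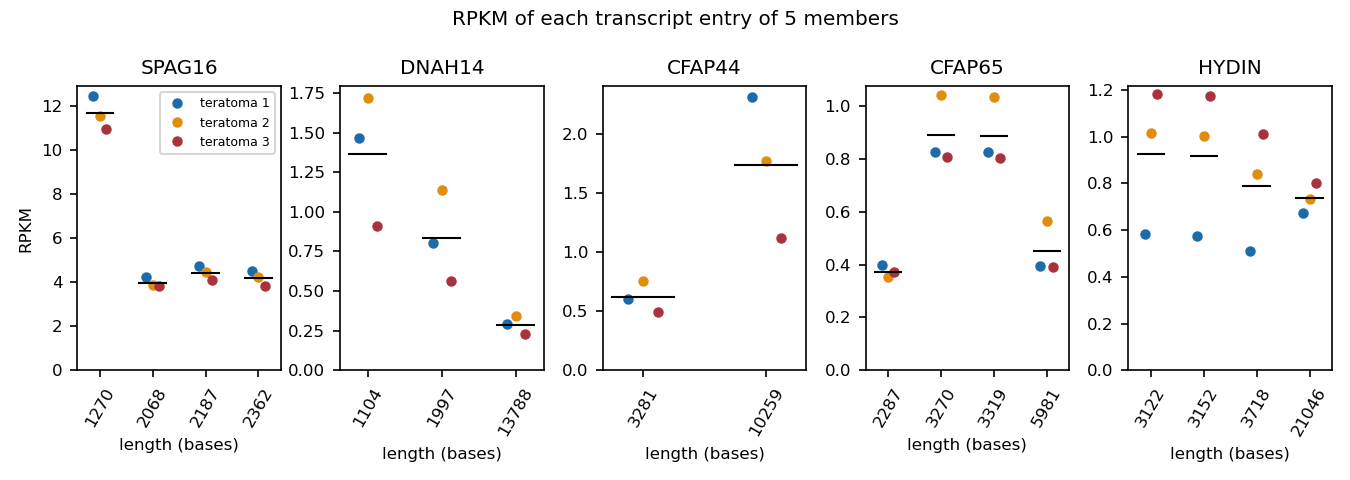
RPKM (y axis) of each transcript entry of 5 members, ordered by entry length in bases (x axis), in teratoma 1 (blue), teratoma 2 (orange) and teratoma 3 (red), with a bar at the mean. The 1270-base entry of SPAG16 and the 1104-base entry of DNAH14 stand above the longer entries, and in CFAP44 the longer entry is higher.

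Long members were low. Of 24 members with a kept entry under 2000 bases, 17 (70.8%) were at 1 RPKM in all libraries, and of 21 with at least 4000 bases, 5 (23.8%) were: CFAP97, DNAL1, RSPH3, CFAP44 and DNAH1. Among all genes the shares ran the other way, with 35.2% of 13101 short and 77.8% of 5547 long genes. The rank correlation of length and mean RPKM was -0.50 across the 69 members and 0.22 across the 23285 genes with any read. These are descriptions across genes of the same 3 libraries, which are not independent replicates, and the values of long and short genes share library depth.

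**Figure D4:**
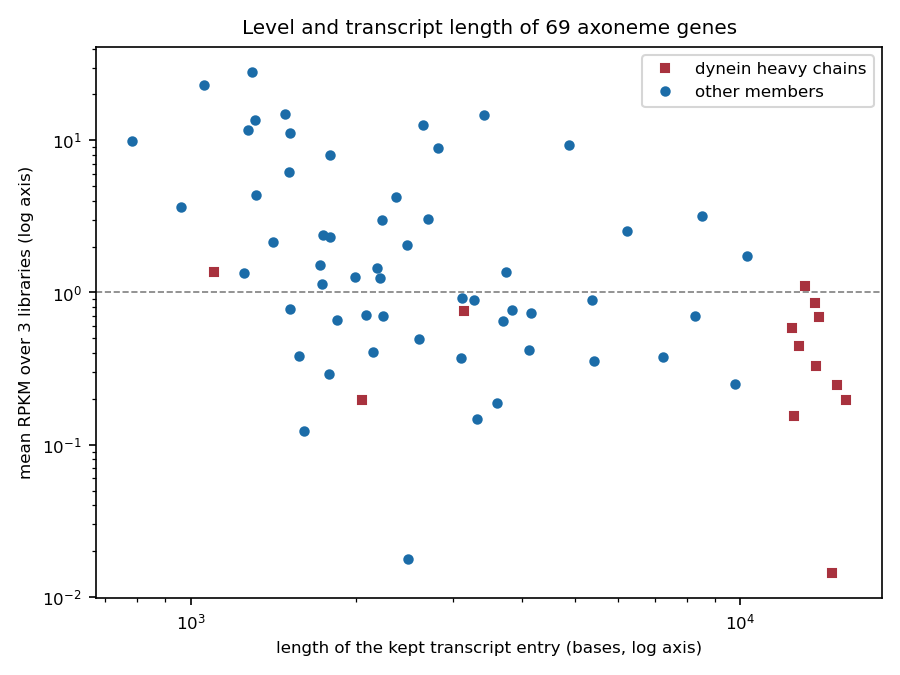
Mean RPKM over the 3 libraries (y axis, log) against the length of the kept transcript entry (x axis, log) for dynein heavy chains (red squares) and other members (blue circles), with a dashed line at 1 RPKM. Of the 21 members with at least 4000 bases, 5 were at 1 RPKM in all libraries.

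Exons of other genes overlap some members, and the strand setting of the counting is not given, so such reads could not be assigned. By GENCODE exons, 8 members shared at least 20% of their exon bases with another gene. All exon bases of CFAP126 lie opposite SDHC, a respiratory chain gene at 8.24, 8.29 and 8.05 RPKM on its 2688-base entry, and 33.1% of CFAP73 lies opposite DDX54 (19.7, 18.6 and 12 on its 4381-base entry). RSPH9 shared 23% with MRPS18A, which stood at 19.3, 17.4 and 11.5 RPKM on its 1119-base entry. CFAP73 and DDX54 were both lowest in teratoma 3, whereas RSPH9 was highest there and MRPS18A lowest. The others were CFAP206, CFAP44, DNAAF3, RSPH10B and TEKT4. Without these 8, 26 of the remaining 61 members were at 1 RPKM throughout. Among antisense transcripts listed in the tables, CFAP44-AS1 had 4, 4 and 5 reads and DNAH17-AS1 had 4, 10 and 0. CFAP58-AS1 stood at 0.199, 0.121 and 0.402 RPKM, with a mean (0.241) above that of CFAP58 itself (0.147). The copies HYDIN2 and TEKT4P2 had 0 reads in each library, whereas RSPH10B2 matched RSPH10B.

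Between libraries the members' levels lay within 2-fold on a log2 scale with a pseudocount. On log2(RPKM + 1), a scale that understates the differences of low genes, no member differed by 1 or more (2-fold) between its highest and lowest library with counting intervals apart, against 11.7% of all genes. Among the 34 members whose mean reached 1 RPKM the count was also 0, against 19.6% of genes past that filter. Those genes had a median of 7.51 RPKM and were not matched to the members in level. The pseudocount also narrowed the ranges of members past the filter: TEKT1, with a plain ratio of 2.58, had a range of 0.875. The widest range was 0.95, in DNAAF5. Genes under 1 RPKM in all 3 libraries, 29 of the members and 39.5% of all genes, could not differ by 1 on this scale. Pair by pair, 0 members lay 1 or more higher or lower. The background was 0.989% of genes higher and 0.604% lower in teratoma 2 than 1, 4.43% and 5.76% in 3 than 1, and 2.49% and 5.02% in 3 than 2.

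The count depended on the scale. As a plain ratio of RPKM, with counting intervals apart, 11 members differed at least 2-fold, against 22.9% of all genes. They were DNAAF5, CFAP73, TEKT1, SPAG6, CFAP44, HYDIN, TEKT4, CFAP161, CFAP74, DNAH12 and DNAH3, and teratoma 3 was the lowest library for 10 of the 11, all but HYDIN. How often teratoma 3 was lowest among all genes past this ratio was not counted, so this is no trait of the members. HYDIN and CFAP44 passed only on the entry kept. On its 3281-base entry CFAP44 stood at 0.606, 0.752 and 0.489 RPKM. With a pseudocount of 0.1 the count was 7 members against 21% of genes. Counting intervals of the highest and lowest library lay apart for 45 members, against 56.4% of genes, so depth was enough to tell libraries apart in most of them.

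Small differences leaned toward a lower level in teratoma 3. Of the 34 members whose mean reached 1 RPKM, 24 were lowest there, against 48.1% of genes past that filter. The interval of teratoma 3 lay below both others for 14 members (20.3%) and above both for 7 (10.1%). Over all genes, those without a read included, the shares were 22% and 17.4%. Of the 15701 genes whose mean reached 1 RPKM, 5332 lay below both and 4386 above both. Members and genes were not matched in level for these counts, so the intervals did not add to this lean. The median deviation of a member from its mean over the libraries was 0.05, 0.02 and -0.09 on the log2 scale in teratomas 1, 2 and 3, and 0 in each library over all genes. Over the 34 members whose mean reached 1 RPKM it was 0.11 in teratoma 1 and -0.16 in teratoma 3, against 0.03 and -0.04 over all genes past that filter. In bulk tissue, fewer ciliated cells and less RNA per cell cannot be told apart.

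**Figure D5:**
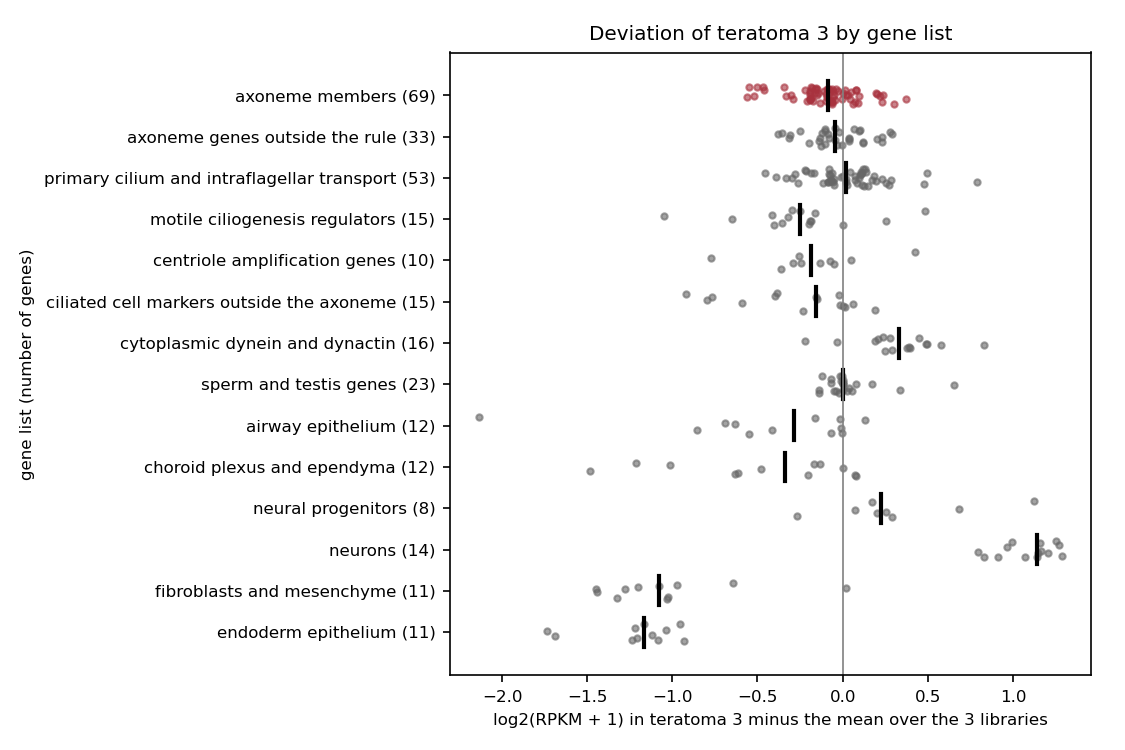
Level in teratoma 3 minus the mean over the 3 libraries, on log2(RPKM + 1) (x axis), for each gene (points) of the members (red) and of 13 other lists (grey), with black bars at the medians. The members have a median of -0.09, regulators -0.25, centriole genes -0.19 and ciliated cell markers -0.16. Neurons lie above (1.14), and mesenchyme (-1.08) and endoderm epithelium (-1.17) below. The scale understates differences of low genes: the median level is 0.926 RPKM for members and 61.2, 34.3 and 25.6 for these last 3 lists.

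Axoneme genes whose symbols fell outside the set also had a low median level. Of 33, such as the docking, nexin-dynein and doublet genes, 21 (63.6%) were at 1 RPKM in all libraries, against 52.7% of all genes. Their median was 1.66 RPKM, against 2.05 over all genes, and their median deviation in teratoma 3 was -0.04. The highest were STK36 (6.5, 6.03 and 5.51 RPKM), CCDC113 (4.22, 4.49 and 6.13) and CCDC103 (4.73, 3.07 and 5.53). Genes of the primary cilium and of intraflagellar transport, which nearly all cell types use, were higher, with 52 of 53 at 1 RPKM throughout and a median of 5.87. KIF3B, a transport motor, stood at 12.8, 14.5 and 23.4 RPKM, IFT27 at 17.5, 15.7 and 17.4 and IFT20 at 17.9, 16.5 and 13.5. Cytoplasmic dynein and dynactin, the transport machinery of the cell body, were all at 1 RPKM or more (16 of 16), with a median of 32.4 and a deviation in teratoma 3 of 0.33. DYNLL2 led at 87.9, 108 and 179 RPKM, then DYNLL1 (82.1, 72.7 and 74.5) and DYNLRB1 (72.8, 65.1 and 88.6). In teratoma 3, 14 of these 16 were at their highest. The background was 8721 of all 27307 genes, those without a read included, and 6263 of the 15701 genes whose mean reached 1 RPKM.

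Regulators of motile ciliogenesis were mostly lowest in teratoma 3. FOXJ1, the forkhead factor of motile cilia, stood at 26.1, 25.1 and 16.3 RPKM, E2F4 at 28.9, 25.9 and 18.6 and E2F5 at 16.2, 13.1 and 11.8. MCIDAS and GMNC, which commit cells to many cilia, stood at 1.15, 0.768 and 0.283 RPKM and at 0.298, 0.301 and 0.0633, the latter on 50, 50 and 10 reads. Of the 15 regulators, 10 were at 1 RPKM throughout, 12 were lowest in teratoma 3, and 6 differed at least 2-fold as a ratio with intervals apart. Over all genes, those without a read included, these shares were 52.7%, 37.7% and 22.9%. Of genes whose mean reached 1 RPKM, 48.1% were lowest in teratoma 3. The 6 were MCIDAS, GMNC, CCNO (8.33, 4.74 and 1.45), TP73 (1.9, 1.91 and 0.477), FOXN4 (1.32, 1.0 and 0.657) and RFX4 (4.72, 10.1 and 12.2), of which RFX4, also a factor of neural progenitors, was highest in teratoma 3. CCNO, TP73, FOXN4 and RFX4 were named after their values were seen. NOTO, a factor of the node, had 0 reads in each library.

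Genes of centriole amplification, which supplies a multiciliated cell with its many basal bodies, were transcribed at low levels. Of 10 genes 7 were at 1 RPKM throughout, against 52.7% of all genes. They were led by CCP110 (5.16, 5.02 and 8.47 RPKM), CEP63 (5.68, 6.27 and 6.34) and PLK4 (4.1, 4.04 and 2.94), which all dividing cells use. Chosen after their values were seen, DEUP1, of the deuterosome, stood at 0.487, 0.393 and 0.103 and CDC20B at 3.59, 2.48 and 0.794. Both were over 4-fold lower in teratoma 3 than in teratoma 1, and CEP152 was the third gene past 2-fold. Of 15 other ciliated cell markers 9 were at 1 RPKM throughout, led by TUBB4B (285, 247 and 176), CETN2 (39.1, 30.8 and 37.1) and C9orf24 (6.09, 9.3 and 7.64), and 5 differed at least 2-fold, all lowest in teratoma 3. Those 5 were CAPS (10.7, 8.14 and 3.65), C20orf85 (9.03, 6.4 and 2.3), CAPSL, SNTN and TSPAN1. Over all genes, 22.9% differed at least 2-fold as a ratio with intervals apart. Whether the axoneme members differ less between libraries than these lists was not tested, and most of the lists hold 15 genes or fewer.

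Markers of tissues that carry motile cilia varied widely beside the members. The airway list was at 46.8, 79.3 and 13.2 RPKM in sum, with 2 of 12 genes at 1 RPKM throughout. It was led by KRT5 (4.14, 54.1 and 9.95), SCGB1A1 (35.1, 17.7 and 1.83) and TP63 (1.73, 3.71 and 0.475). The choroid plexus and ependyma list summed to 134, 235 and 52.8 with 7 of 12 genes, led by TTR (73, 175 and 23.5), which liver also makes, AQP1 (8.42, 19.7 and 3.87) and MSX1 (12.7, 11.9 and 6.03). All 8 neural progenitor genes, led by VIM, SOX2 and NES, were at 1 RPKM or more. In teratoma 3, 7 of them were highest, against 6263 of the 15701 genes whose mean reached 1 RPKM. The sum of these 8 genes, at 1397, 1282 and 1237 RPKM, had the opposite order because of VIM, which mesenchyme also makes. Without VIM it was 298, 301 and 450. Which library was highest rested on 1 gene in each list: the airway sum was 42.7, 25.2 and 3.23 without KRT5, and the choroid plexus sum 61, 59.4 and 29.3 without TTR. With or without these genes, both sums were lowest in teratoma 3, as was the member sum. The part of either tissue in the member values was not tested. Sperm and testis genes were at 1 RPKM throughout in 5 of 23 cases, led by ODF2 (10.1 ± 0.734), a centrosome gene in most cells, SPA17 (4.81 ± 0.439) and CABYR (2.41 ± 1.45). The sperm-specific genes PRM1, PRM2, ODF1, TNP2 and SPATA16 had 0 reads in all 3 libraries.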

How the data were processed

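Polyadenylated RNA was sequenced from 3 teratoma libraries of 1 group. Bowtie2 and hg19 are named in the submitters' processing notes; the counting tool, its strand setting and any removal of mouse reads: not given in the sources used here. The authors deposited, for each transcript entry, a read count, a length, a placement number and an RPKM value. Entries of a gene share reads, so 1 per symbol was kept.

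The members and lists were chosen with earlier results of these data known. The rule named members whose mean reached 1 RPKM or whose libraries differed 2-fold, the lowest and highest of each group, the 3 highest genes of each list, and FOXJ1, MCIDAS and GMNC; other members under 1 RPKM were named after their values were seen. Intervals (95%, exact) and floors of 3 reads cover counting error only. No test between groups was possible. Counts of each pair of libraries differed beyond sampling noise (mean chi-square per gene of 57.7 at least), so none looked like repeated sequencing of another. For the closest pair, teratomas 1 and 2, the median was 5.33 over genes and 3.04 over members. Separate tumours and separate preparations of 1 tumour could not be told apart by these counts. Promoters were matched by transcript accession, or by symbol for 1 gene. Exon overlaps came from GENCODE gene models matched by name. The symbols DNAAF4 and C9orf117 were not matched. Alternatives covered the entry kept, library scaling, detection level, pseudocount, low-value filter, promoter window and leaving out each library. The statistics were tested on simulated data. Python 3.11.15, numpy 2.4.6, pandas 2.3.3, scipy 1.17.1 and matplotlib 3.10.9 were used.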

Additional observations from a re-analysis of the deposited data

How the results depend on the processing

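Of 96 alternatives over 15 results, 81 stayed within the spread or within 1.5 times the count. Detection depended on its level and scale: 45 members passed at 0.5 RPKM, 21 at 2 and 13 at 5, and 56 after rescaling to 1000000 per library, which raises every value. The count of members 2-fold apart, 0, became 7 with a pseudocount of 0.1 and 11 as a plain ratio, an alternative added after the data were seen. It became 1 with entries summed (SPAG6) and 1 after rescaling (TEKT1). Between pairs, 1 member was lower in teratoma 3 than 2 with entries summed and 1 after rescaling, and with a pseudocount of 0.1, 6 were lower in 3 than 1 and 3 in 3 than 2. The median deviation of teratoma 3 was then -0.20. Over members whose mean reached 1 RPKM it was -0.16. The mean member sum was 406 with entries summed, 820 after rescaling and 204 without the 8 overlapping members, also added after the data were seen, as were the list sums without their highest gene. Leaving out each library in turn gave 32 to 34 detected members, 0 members 2-fold apart and a mean sum of 225 to 247. The median deviation was then 0.01 to 0.08 in teratoma 1, -0.01 to 0.05 in teratoma 2, with its sign turned without teratoma 3, and -0.08 to -0.05 in teratoma 3. No paired analysis was possible because the series holds 1 group. The 6 members with fewer than 20 reads in some library limit what depth can show.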
